A study of Mus musculus with 18 samples.

Results

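The keratin genes were taken as the rows of the count table of mouse B16 melanoma cells whose symbol is Krt followed by digits and an optional letter, which gave 54 of the 46095 genes listed. They were separated by class into 5 simple epithelial keratins (Krt7, Krt8, Krt18, Krt19 and Krt20), 24 epidermal and other stratified epithelial keratins, and 24 keratins of the hair shaft and inner root sheath. Krt222, a keratin-related gene, was not classed. B16 is a melanoma cell line of mouse pigment cell origin. The groups were a control group, an ATRA-treated group (all-trans retinoic acid, which binds nuclear retinoic acid receptors) and a PB-4-treated group (sodium 4-phenylbutanoate, which inhibits histone deacetylases), with 3 total RNA libraries each, or 9 libraries. The labels and methods do not say how much of either agent the sequenced cells received or for how long, nor whether libraries of a group came from separate cultures. The p-values therefore reflect the spread among these libraries alone, which may be technical. Levels are counts or CPM (counts scaled to a common library size, with TMM factors). A change is a log2 fold change with its standard error, and each adjusted p comes from an edgeR test over the whole table.

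Keratins are the intermediate filament proteins of epithelial cells. A type I keratin pairs with a type II keratin, and the pairs build filaments that are anchored at desmosomes between cells and at hemidesmosomes on the basement membrane. Krt8 and Krt18 form the pair of simple epithelia, Krt5 and Krt14 that of basal epidermis, and Krt1 and Krt10 that of the layers above, while pigment cells and most melanomas carry vimentin in place of keratins.

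Library totals ran from 12632669 to 36176443 counts, and replicate 3 was the shallowest library of each group. The correlation of the deviations of 2 libraries from their group means was 0.487 to 0.803 for libraries of the same replicate number, -0.766 to -0.527 for replicate 3 against the other numbers, and 0.448 to 0.674 between replicates 1 and 2 of different groups. The labels name skin as the source and B16 as the cell line. The 7 melanocyte markers summed to 6780 to 14600 CPM per library. Of the defining markers of keratinocytes, Ivl, Flg and Krt1 held 0 counts in all 9 libraries, and Krt5, Krt10 and Krt14 held 1, 1 and 4 counts over all 9. The 19 keratinocyte and cornified envelope genes in the table, of which 6 were at 0 in every library, summed to 8.6 to 11.5 CPM in the control group, 10.6 to 16.8 CPM under ATRA and 13.2 to 17.6 CPM under PB-4. Sfn and Sbsn, which other cells can also express, were the genes of this list found in every library, at 3.33 CPM or more. All 54 keratin-associated protein genes (Krtap), which code for the matrix of hair, held 0 counts.

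Most keratins were not detected or were near the detection limit. Of the 54 keratins, 26 held 0 counts in all 9 libraries, 19 held 1 to 9 counts over all 9, and 9 held at least 10. The undetected genes were 10 of the 24 stratified epithelial keratins (Krt1, Krt2, Krt6a, Krt9, Krt12, Krt24, Krt75, Krt77, Krt79 and Krt90) and 16 of the 24 hair and inner root sheath keratins. A count of 0 allows up to 3 counts, which was 0.0829 to 0.237 CPM in these libraries, and such limits cover counting error only. All 5 simple epithelial keratins held counts. At least 1 count was found for 12 keratins in the control group, for 14 in the ATRA-treated group and for 25 in the PB-4-treated group. Several of the 25 rest on 1 count, and PB-4 replicates 1 to 3 held 11, 11 and 19 keratins with a count. More genes of any kind were also found with PB-4. Over the whole table, 25738 genes held a count in the PB-4 and control libraries and 23337 in the ATRA and control libraries. One gene, Krt80, held 96.5% of the 8629 keratin counts, from 91.6% (95% Wilson interval 89.9 to 93.1%) in PB-4 replicate 3 to 99.9% (99.5 to 100%) in control replicate 2. Without Krt80, the keratin counts per library were 4, 1 and 29 in the control group, 3, 16 and 11 under ATRA and 55, 92 and 94 under PB-4, in the order of replicates 1 to 3, so that the PB-4 libraries lay above the others. By type, the 28 type I genes (the chromosome 11 keratins and Krt18) held 15, 17 and 49 counts in the control, ATRA-treated and PB-4-treated groups, and the 25 type II genes other than Krt80 held 19, 13 and 192.

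Few keratins reached the 10 counts needed for a test, and those below it were not tested. In ATRA versus control 3 keratins were tested and 0 were called by edgeR, beside 0.625% of 17911 genes called lower. At unadjusted p under 0.05, 1 was lower, DESeq2 called 0 and limma voom 1. Over all genes 1560 were lower at unadjusted p under 0.05, and DESeq2 and limma voom called 695 and 2793 lower. In PB-4 versus control 2 of 9 tested keratins rose, Krt8 and Krt81, and 0 fell, beside 11.5% of 19450 genes called higher. In PB-4 versus ATRA 3 of 7 tested keratins rose, Krt7, Krt8 and Krt81, and 0 fell, beside 10.3% of 19521 genes called higher. These counts are over members that passed the filter, and in both PB-4 comparisons Krt7, Krt8, Krt19, Krt20, Krt81 and Krt87 would not have reached it without their PB-4 counts. With the replicate number as a block the counts were 1 lower in ATRA versus control (Krt80, beside 10.8% of genes called lower), 3 higher in PB-4 versus control (Krt7, Krt8 and Krt81, beside 23.1% called higher) and 4 higher in PB-4 versus ATRA (these and Krt80, beside 18.7% called higher).

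Krt80 codes for a type II keratin that in human tissues is found in many epithelia, and it was the abundant keratin of these cells. Its level was 30.5, 33.9 and 111 CPM in control replicates 1 to 3, 4.86, 9.32 and 35.3 CPM in the ATRA-treated group, and 34.8, 48.8 and 69.8 CPM in the PB-4-treated group. Replicate 3 was the highest library of each group, 3.44 times the mean of replicates 1 and 2 in the control group, 4.97 times under ATRA and 1.67 times under PB-4, and ATRA replicate 3 lay above control replicates 1 and 2. Against the control library of the same number, ATRA libraries were 6.28-, 3.64- and 3.14-fold lower. With 3 libraries per group, the difference did not pass the test without the block (log2 fold change -1.86 ± 0.78, adjusted p = 0.303) and passed it with the replicate number as a block (-2.05 ± 0.20, adjusted p = 9.6e-04) and with replicates 1 and 2 only (-2.18, adjusted p = 1.7e-05). In bulk RNA, fewer cells that carry a transcript and less of it per cell cannot be told apart.

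**Figure D1:**
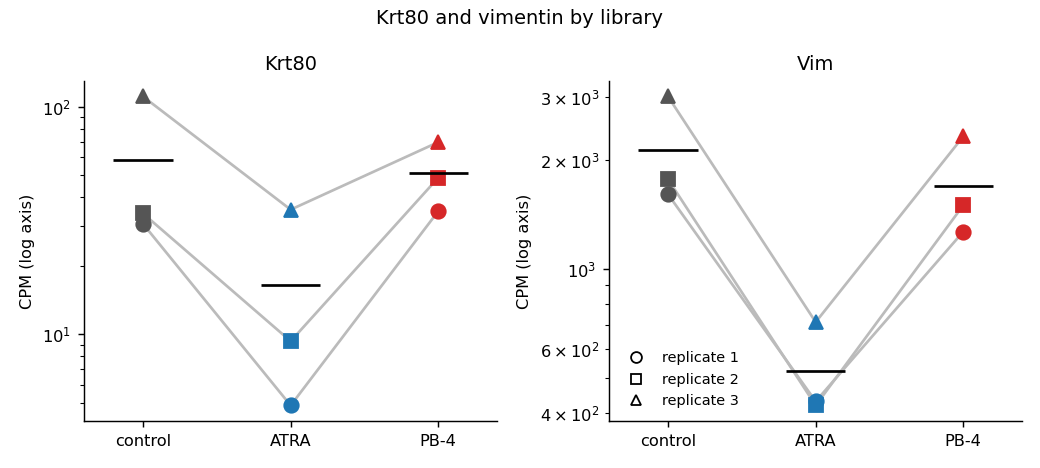
Level of Krt80 and of Vim in each of the 9 total RNA libraries, in CPM on a log axis; bars are group means, symbols mark the replicate number, and grey lines join libraries of the same number. Every ATRA library lies below the control and PB-4 libraries of its own number, from 4.86 to 35.3 CPM for Krt80 and from 419 to 713 CPM for Vim.

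PB-4 and control libraries overlapped in Krt80 (log2 fold change -0.18 ± 0.49, adjusted p = 0.839), and the sign changed with the block (0.01) and without control replicate 3 (0.63). By number, PB-4 libraries were at 1.14, 1.44 and 0.630 times the control. Between the treatments, PB-4 libraries were 7.15, 5.23 and 1.98 times the ATRA library of the same number. That difference did not pass without the block (1.72 ± 0.63, adjusted p = 0.113) and passed with it (2.10 ± 0.33, adjusted p = 0.0014) and without ATRA replicate 3 (adjusted p = 0.00502). The lncRNA gene Gm35853 overlaps Krt80 in the annotation. It held 10 counts in the control group, 0 under ATRA and 13 under PB-4, and since strand in the counting is not stated, its reads and those of Krt80 cannot be told apart.

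The simple epithelial keratins, which mark single-layered epithelia, together held 9 counts in the control group, 10 under ATRA and 167 under PB-4. Krt7, a type II keratin of ducts and glands, held 0, 0 and 5 counts in control replicates 1 to 3, 1, 6 and 0 under ATRA and 14, 52 and 29 under PB-4. In CPM the PB-4 libraries (0.543, 1.34 and 1.96) did not overlap those of the control group (at most 0.321) or of the ATRA-treated group (at most 0.166). Krt7 passed the test against ATRA (log2 fold change 3.89 ± 0.91, adjusted p = 0.0242), and was lost there without ATRA replicate 1 (adjusted p = 0.0986), PB-4 replicate 2 (0.0754) or PB-4 replicate 3 (0.0512). Against the control group it did not pass (3.88 ± 1.26, adjusted p = 0.0710) and passed with the block (4.25 ± 0.92, adjusted p = 6.5e-04) or without control replicate 3 (adjusted p = 0.00915), the library that held all 5 control counts. ATRA and control did not differ detectably at this depth (-0.18 ± 1.86, adjusted p = 0.974).

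Krt8, the type II partner of the simple epithelial pair, held 1, 0 and 0 counts in the control group, 1, 0 and 0 under ATRA and 6, 9 and 26 under PB-4. All PB-4 libraries were above all others, from 0.233 to 1.76 CPM against at most 0.0373, and PB-4 replicate 3 held the most. The ratio of summed, depth-normalized counts was 38.2 over the control group (95% counting interval 6.49 to 1550, counting error only) and 40.5 over ATRA (6.88 to 1640). Krt8 passed both tests (adjusted p = 0.0397 against the control group and 0.0396 against ATRA). Against the control group the call remained without PB-4 replicate 1 (adjusted p = 0.0440) and was lost without any other library (adjusted p up to 0.136). Against ATRA it was lost without ATRA replicate 1, 2 or 3 or PB-4 replicate 3 (0.0796 to 0.122). A Krt8 pseudogene is listed in the table (Krt8-ps), and how reads shared between copies were counted is not stated.

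Krt18, the type I partner of Krt8, was at 0 in all control and ATRA libraries and held 4, 1 and 1 counts with PB-4, which is at least 1.87-fold higher than the control group and at least 1.98-fold higher than ATRA with a floor of 3 counts over the group. It did not reach the filter. Krt8 thus held 41 counts with PB-4 and Krt18 held 6, as counts that are not corrected for transcript length. Krt19, a type I keratin of simple and some stratified epithelia, held 1, 0 and 0 counts in the control group, 1, 0 and 0 under ATRA and 6, 9 and 0 under PB-4, so that PB-4 replicate 3, the library with the most Krt8, had 0. Its ratio was 14.0 over the control group (counting interval 2.15 to 589), and the tests did not pass (adjusted p = 0.187 against the control group and 0.198 against ATRA). Krt20, a keratin of intestinal epithelium and of Merkel cells, held 2, 0 and 0 counts, 0, 1 and 0 counts, and 3, 5 and 2 counts in the same order of groups, with a ratio of 4.66 over the control group (0.994 to 43.8; adjusted p = 0.329).

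**Figure D2:**
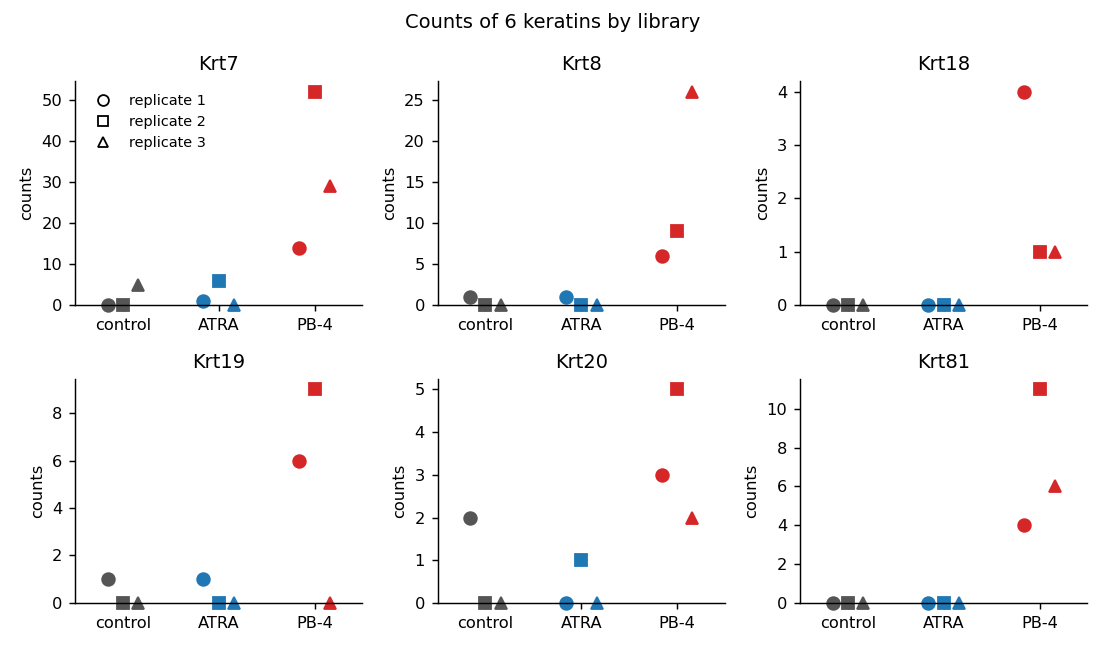
Counts of the 5 simple epithelial keratins and of the hair keratin Krt81 in each library (linear axes from 0, symbols mark the replicate number). PB-4 libraries reach 52 counts for Krt7, 26 for Krt8 and 11 for Krt81, while no control or ATRA library exceeds 6 counts of any of these 6 genes.

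The 250 bases before the annotated start of 4 simple epithelial keratins are shown because the results turn on this class of keratins. Sequences are those of RefSeq on GRCm38.p6, written 5′ to 3′ on the strand of the gene, with matches in capitals to the GC box (GGGCGG), an AP-1 motif (TGANTCA) and a TATA box (TATAAA), searched on both strands. Krt7 lies at chr15:101412153-101412402 (plus strand), Krt8 at chr15:102004343-102004592 (minus strand), Krt18 at chr15:102027966-102028215 (plus strand) and Krt20 at chr11:99438154-99438403 (minus strand).
Krt7: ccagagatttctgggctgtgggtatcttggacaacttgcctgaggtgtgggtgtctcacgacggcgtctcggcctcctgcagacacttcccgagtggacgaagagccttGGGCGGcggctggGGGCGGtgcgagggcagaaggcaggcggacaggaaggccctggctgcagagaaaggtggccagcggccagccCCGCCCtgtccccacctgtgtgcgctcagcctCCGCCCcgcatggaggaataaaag
Krt8: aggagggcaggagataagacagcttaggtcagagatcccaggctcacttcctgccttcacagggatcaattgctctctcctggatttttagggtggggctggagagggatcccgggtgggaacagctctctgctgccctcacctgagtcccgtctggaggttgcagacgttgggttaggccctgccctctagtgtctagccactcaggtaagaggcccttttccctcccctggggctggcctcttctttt
Krt18: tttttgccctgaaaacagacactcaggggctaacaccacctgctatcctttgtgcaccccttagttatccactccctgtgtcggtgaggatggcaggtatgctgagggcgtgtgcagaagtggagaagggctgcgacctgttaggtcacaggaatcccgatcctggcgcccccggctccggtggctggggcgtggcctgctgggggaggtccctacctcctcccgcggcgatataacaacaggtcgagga
Krt20: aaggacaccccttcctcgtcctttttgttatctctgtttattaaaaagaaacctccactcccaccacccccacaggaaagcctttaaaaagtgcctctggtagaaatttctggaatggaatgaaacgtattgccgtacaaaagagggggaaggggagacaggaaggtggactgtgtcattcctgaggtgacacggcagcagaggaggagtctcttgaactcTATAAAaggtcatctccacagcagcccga
The Krt7 window held 4 GC boxes and 16 CpG, the most CpG of the 37 windows available for 36 keratins. The Krt18 window held 12 CpG, the next most, and the Krt8 window 3. Over all promoters, 74.6%, 66.5% and 29.0% of windows held fewer CpG than those of Krt7, Krt18 and Krt8. No window was available for Krt80, Krt81 or Krt19. A GC box was found in 5.41% of the keratin windows and in 32.7% of 32851 windows of the same length over all promoters, and a TATA box in 45.9% and 12.4%, as in Krt20, which held 1. The AP-1 motif was found in 5.41% and 6.75%. No match says only that these letters are not in the window.

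The hair keratin Krt81, a type II keratin of the hair cortex, held 0 counts in every control and ATRA library and 4, 11 and 6 counts with PB-4. Its PB-4 level was at least 6.53-fold higher than the control group and at least 6.92-fold higher than ATRA, with a floor of 3 counts over the group, and passed both tests (adjusted p = 0.0453 and 0.0490). Both calls were lost without any single library (0.0592 to 0.123 against the control group and 0.0677 to 0.130 against ATRA). Its neighbour Krt87 held 0, 0 and 7 counts in the control group, 0, 0 and 1 under ATRA and 7, 2 and 6 under PB-4, and did not pass (0.85 ± 1.58, adjusted p = 0.759, against the control group). Krt88 held 0 counts in the control and ATRA libraries and 5, 0 and 1 with PB-4. Krt83 and Krt86, type II hair keratins close in sequence to Krt81, held 1 count each, both with PB-4. Reads that fit several of these copies may have been split among them, so single members are uncertain. Of the other hair and inner root sheath keratins, Krt25, Krt74 and Krt82 held 1 count each and 16 held 0.

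The stratified epithelial keratins other than Krt80 were found mostly in the replicate 3 library of each group. These 23 genes held 0 counts in the replicate 1 libraries, 10 in replicate 2 and 48 in replicate 3, although the replicate 3 libraries together were the shallowest (43567522 counts, against 81474711 and 104641742). Krt4 and Krt13, the pair of inner mucosal epithelia such as the oesophagus, had the clearest pattern. Krt4 held 6, 3 and 5 counts in replicate 3 of the control, ATRA and PB-4 groups and 0 in the other libraries. Krt13 held the same 6, 3 and 5 counts in replicate 3, and 1 count in control replicate 2. With PB-4 against the control group they gave -0.23 ± 2.03 (adjusted p = 0.951) and -0.39 ± 1.89 (adjusted p = 0.915). Krt14, Krt15, Krt16 and Krt17, keratins of basal, hair follicle and wound-edge epithelium, held 3 or 4 counts each, 11 of these 13 counts in replicate 3. Krt23 held 6 counts in ATRA replicate 2 and 2 in PB-4 replicate 3, Krt78 held 3 counts in PB-4 replicate 3, and Krt5, Krt6b, Krt10, Krt42 and Krt76 held 1 count each. Krt222 held 1 count in control replicate 3 and 5 in PB-4 replicate 1.

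**Figure D3:**
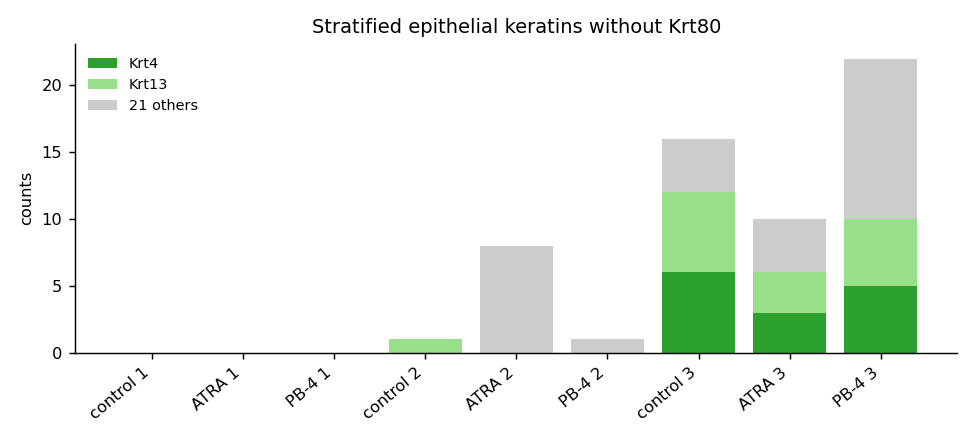
Counts of the 23 stratified epithelial keratins other than Krt80 in each library, ordered by replicate number and stacked as Krt4, Krt13 and the 21 others. Replicate 1 libraries hold 0 counts and replicate 3 libraries hold 48 over the 3 groups.

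Of the keratins on chromosome 15 (GRCm38), those at the ends of the cluster held most of the PB-4 counts. The cluster holds 27 keratins, of which Krt18 is the type I member. Krt80, Krt7, Krt87, Krt88, Krt81, Krt86 and Krt83 are consecutive keratins at one end (101348315 to 101491512), and the 6 other than Krt80 held 12 counts in the control group, 8 under ATRA and 139 under PB-4. At the other end Krt78, Krt8 and Krt18 (101946001 to 102032026) held 1, 1 and 50 counts. The 17 keratins between, from Krt84 to Krt79, which include the epidermal genes Krt5, Krt6a, Krt6b and Krt1, held 6, 4 and 9 counts. Krt19 and Krt20, with 15 and 10 PB-4 counts, lie on chromosome 11. Outside the cluster, protein-coding genes on either side were well detected in all groups. Counts in control, ATRA and PB-4 were 882, 513 and 849 of Nr4a1 and 34468, 42349 and 37928 of Eif4b. Atg101, between Nr4a1 and the cluster, held 1840, 2133 and 2381 counts. The lncRNA genes Gm41403 and Gm41405, which lie closer to the cluster than these protein-coding genes, held 0, 0 and 1 counts and 0, 0 and 0 counts. This layout was noticed after the values were seen and was not tested.

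**Figure D4:**
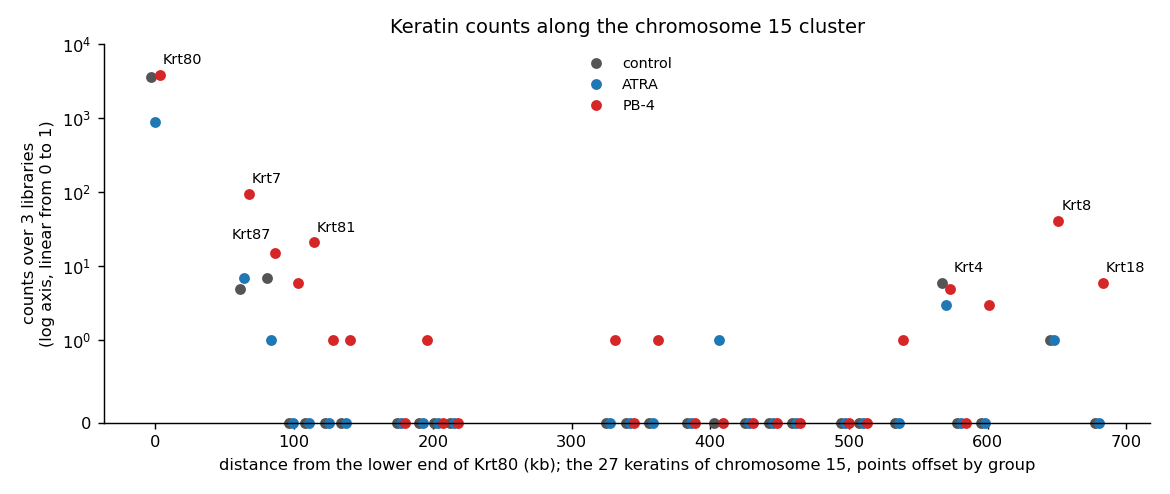
Counts summed over the 3 libraries of each group for the 27 keratins of chromosome 15, against the distance in kb from the lower end of Krt80 (log axis, linear from 0 to 1). PB-4 counts stand above the other groups at Krt7 (95), Krt81 (21), Krt8 (41) and Krt18 (6), and the genes between hold few counts in any group.

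Of 13 other intermediate filament genes, 9 were tested, and with ATRA 1 was called, the gene of vimentin (Vim), the filament of mesenchymal and pigment cells (beside 0.625% of all genes called lower; with the block 2 were called higher and 4 lower, beside 7.53% and 10.8%). It was at 1610, 1770 and 3000 CPM in the control group, 430, 419 and 713 CPM under ATRA and 1270, 1500 and 2330 CPM under PB-4. It fell with ATRA (log2 fold change -2.05 ± 0.34, adjusted p = 0.0398), by 3.75-, 4.23- and 4.22-fold against the control library of the same number, and was higher with PB-4 than with ATRA (1.75 ± 0.32, adjusted p = 0.00763). The ATRA call was lost without control replicate 1 (adjusted p = 0.133) or 2 (0.185) or ATRA replicate 1 (0.239) or 2 (0.182). With PB-4, 4 of the 9 tested genes of this list rose against the control group, 1 fell (Lmnb1, lamin B1) and 4 were not called, beside 11.5% of all genes called higher and 4.59% called lower. The median log2 fold change was 0.14 beside 0.03 over all 19450 genes. With the block 4 rose and 3 fell, beside 23.1% and 21.3%. Peripherin (Prph), a filament of peripheral neurons, rose from 5.65 ± 5.52 to 106 ± 79.8 CPM (4.28 ± 0.79, adjusted p = 0.00894), and was not called without the filter on low counts (adjusted p = 0.0800). Desmin (Des), the filament of muscle, rose from 11.6 ± 6.30 to 62.7 ± 16.3 CPM (2.44 ± 0.39, adjusted p = 0.00514). The glial filament gene Gfap (2.14 ± 0.47, adjusted p = 0.0181) and synemin (Synm, 1.88 ± 0.47, adjusted p = 0.0292) rose from about 1 CPM. The Gfap call was lost without control replicate 1 (0.0671), control replicate 2 (0.0509) or PB-4 replicate 2 (0.0690), and the Synm call without control replicate 1 (0.104), PB-4 replicate 1 (0.0570) or PB-4 replicate 2 (0.105). Gfap was not particular to PB-4, with 4.90, 3.49 and 3.10 CPM under ATRA. Its ATRA difference from the control group was 1.81 (adjusted p = 0.108, and 0.0205 with the block). Between PB-4 and ATRA it did not differ detectably (0.35 ± 0.38, adjusted p = 0.622).

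Genes that anchor or cross-link keratin filaments rose with PB-4 in part. Of 17 desmosome and keratin linker genes, 14 were tested against the control group, 3 rose, 0 fell and 11 were not called, beside 11.5% of all genes called higher (7 rose and 1 fell with the block, beside 23.1% and 21.3%). Eppk1 and Pkp3 of this list, and Lamb3, Grhl2, Grhl3, Trp63, Dmkn, Padi3 and Lum of the lists that follow, held under 10 counts in the control group. They reached the filter only through PB-4, so the counts of called genes are a description. Jup, which codes for plakoglobin of the desmosomal plaque, was at 4.29, 3.71 and 5.97 CPM in the control group, 7.77, 7.85 and 11.6 CPM under ATRA and 42.8, 47.9 and 113 CPM under PB-4 (3.87 ± 0.44, adjusted p = 0.00155). Epiplakin (Eppk1), which binds keratin filaments, rose from 0.0709 ± 0.0749 to 4.15 ± 1.72 CPM (5.61 ± 0.80, adjusted p = 0.00322). Plakophilin 3 (Pkp3) held 4 counts in the control group and 85 with PB-4 (4.56 ± 1.18, adjusted p = 0.0336), and was lost without control replicate 1 (0.0978), PB-4 replicate 2 (0.0636) or PB-4 replicate 3 (0.0875). Desmoplakin (Dsp), which ties keratin to the desmosome, stayed at or below 0.271 CPM in every library. Plectin (Plec), a linker of several filament types, was higher with PB-4 than with ATRA (1.18 ± 0.31, adjusted p = 0.0392) and was called there without PB-4 replicate 1 and in no other omission of 1 library (0.0519 to 0.145).

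Of 6 hemidesmosome genes tested with PB-4 against the control group, 3 rose, 0 fell and 3 were not called, beside 11.5% of all genes called higher (5 rose with the block, beside 23.1%). Lamb3, the beta chain of the laminin of epithelial basement membranes, held 0 counts in the control group and 89, 215 and 69 with PB-4, at least 116-fold higher with a floor of 3 counts over the group (adjusted p = 0.00157). Its alpha chain gene Lama3 rose from 0.168 ± 0.159 to 3.38 ± 0.312 CPM (4.13 ± 0.76, adjusted p = 0.0091). The integrin gene Itgb4 (2.41 ± 0.46, adjusted p = 0.0106) was lost without control replicate 1 (0.0506) or 2 (0.0550). Col17a1, a hemidesmosome collagen, was higher with PB-4 than with ATRA (3.17 ± 0.73, adjusted p = 0.0229), and this was lost without ATRA replicate 1 (0.0901) or PB-4 replicate 1 (0.0564). With ATRA against the control group, 0 of 5 tested hemidesmosome genes and 0 of 10 tested desmosome and linker genes were called by edgeR (1 and 2 with the block). At unadjusted p under 0.05, 1 of each list passed, DESeq2 called 0 of each, and limma voom called 2 of each. Of all 17911 genes, edgeR called 191 (3288 with the block), DESeq2 1251 and limma voom 5236. At unadjusted p under 0.05, 1251 of all genes were higher and 1560 lower.

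**Figure D5:**
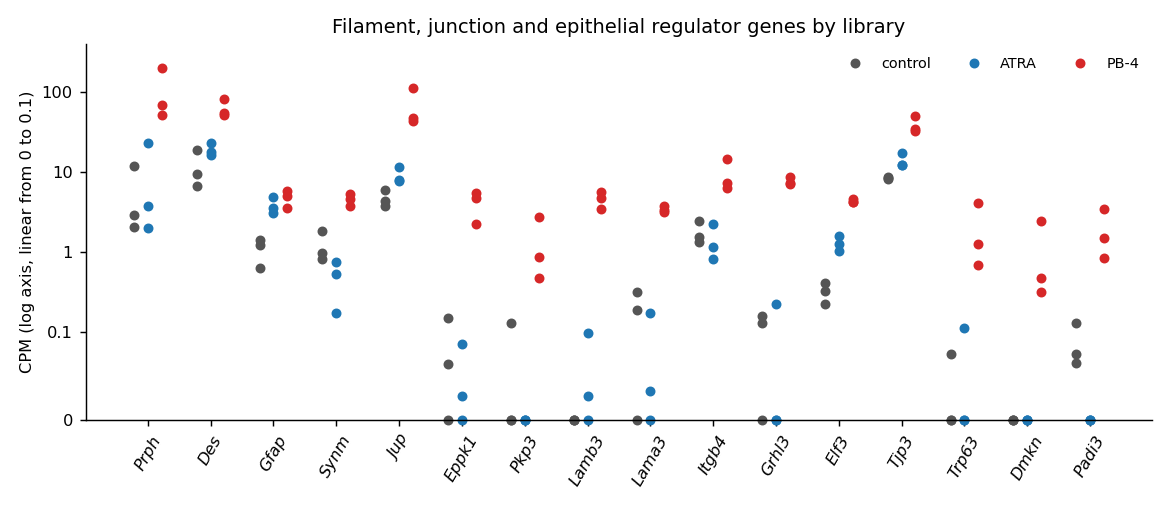
Level in each library (CPM, log axis, linear from 0 to 0.1) of the 16 filament, junction and epithelial or hair follicle genes named for a call in PB-4 versus control (Vim, Plec, Col17a1 and others are not plotted), for the control (grey), ATRA (blue) and PB-4 (red) libraries. The PB-4 libraries stand above every control library for each of these genes, for example 42.8 to 113 CPM against 3.71 to 5.97 CPM for Jup. The genes were chosen by this same comparison, so their separation is a description and not a further test.

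Of 22 epithelial identity genes, 10 were tested with PB-4 against the control group, 4 rose, 0 fell and 6 were not called, beside 11.5% of all genes called higher (5 rose with the block, beside 23.1%). Grhl3, a transcription factor of epidermal barrier formation, was at 0, 0.158 and 0.128 CPM in the control group and 7.17, 7.08 and 8.73 CPM with PB-4 (6.26 ± 0.75, adjusted p = 0.00186). Elf3, an epithelial Ets factor, rose from 0.318 ± 0.0945 to 4.34 ± 0.225 CPM (3.75 ± 0.48, adjusted p = 0.00209), and the tight junction gene Tjp3 from 8.36 ± 0.263 CPM to 32.2, 34.2 and 50.5 CPM (2.21 ± 0.26, adjusted p = 0.0018). Under ATRA, Elf3 was at 1.57, 1.25 and 1.03 CPM and Tjp3 at 17.3, 12.3 and 12.1 CPM. These ATRA differences from the control group did not pass without the block (adjusted p = 0.115 and 0.232) and passed with it (0.0279 and 0.0414). The defining epithelial adhesion genes were near the limit, with Cdh1 at or below 0.642 CPM in every library and Epcam at 0 counts in the control group and 6 with PB-4. Of the 19 keratinocyte and cornified envelope genes listed, 5 were tested and the 2 called higher, Trp63 and Dmkn, are among those that PB-4 brought past the filter, beside 11.5% of all genes called higher. Trp63, a regulator of stratified epithelium, held 2, 0 and 0 counts in the control group and 104, 49 and 10 with PB-4 (ratio 76.0, counting interval 20.7 to 633, adjusted p = 0.0118). Dmkn, a secreted epidermal protein gene, held 0 counts in the control and ATRA groups and 8, 18 and 36 with PB-4 (at least 19.3-fold higher, adjusted p = 0.0279), and was lost without control replicate 1 (0.0708) or 2 (0.0746) or PB-4 replicate 3 (0.0548). Of 8 hair follicle structural genes, 5 held 0 counts in all 9 libraries, and Foxn1 and S100a3 stayed at or below 0.203 CPM. Only Padi3, a protein-modifying enzyme of the inner root sheath, was tested, and it was called higher, beside 11.5% of all genes. It held 2, 4 and 1 counts in the control group and 38, 32 and 51 with PB-4 (4.28 ± 0.79, adjusted p = 0.0090).

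Some markers of other cell types moved beside these genes, with 11.5% of all genes called higher and 4.59% called lower in PB-4 versus control (23.1% and 21.3% with the block). Of 7 melanocyte markers 3 fell with PB-4 (4 with the block), and their summed level was 6780 to 8330 CPM against 12200 to 14600 CPM. They were Mlana (-2.83 ± 0.37, adjusted p = 0.00242), Pmel (-1.88 ± 0.27, adjusted p = 0.00322) and Tyrp1 (-1.35 ± 0.29, adjusted p = 0.0169), the last lost without control replicate 1 (0.0557) or 2 (0.0704) or PB-4 replicate 2 (0.0514). Dct, Mitf and Sox10 were not called, and averaged 3910, 430 and 363 CPM with PB-4 against 3800, 404 and 350 CPM. Tyr, at 5.03 against 9.54 CPM, was called only with the block. The 6 fibroblast markers summed to 167 to 241 CPM with PB-4 and 62.6 to 103 CPM in the control group, with 2 called higher (3 with the block), among them Pdgfra (3.53 ± 0.44, adjusted p = 0.0021). Most of the sum was Fbln1 and Pdgfra, which averaged 112 and 81.4 CPM with PB-4 and 67.5 and 6.87 CPM in the control group. Thy1 held 0 counts in every library, and Dcn and Lum, the other gene called, stayed at or below 0.271 and 0.813 CPM. The 5 immune markers summed to 35.4 to 43.7 CPM against 11.6 to 16.7 CPM, with 1 called higher (2 with the block), Lyz2 (3.33 ± 0.29, adjusted p = 5.8e-04). Most of the sum was Lyz2 and Cd68. Lyz2 was at 21.4 to 25.5 CPM with PB-4 and 1.93 to 2.5 CPM in the control group. Cd68 was at 13.9 to 17.1 CPM and 9.09 to 14.8 CPM, and was not called (adjusted p = 0.379). Cd3e was at 0 CPM in every library, and Csf1r and Ptprc stayed at or below 0.116 and 1.03 CPM. The 4 endothelial markers summed to at most 1.22 CPM, with 0 called by edgeR and by DESeq2 (0 at unadjusted p under 0.05, 1 with the block and 1 with limma voom). Over all genes limma voom called 9129 of 19450. Against ATRA, the fibroblast marker Col1a2 (5.47 ± 1.00, adjusted p = 0.00835) and the macrophage marker Cd68 (2.08 ± 0.41, adjusted p = 0.0116) were higher with PB-4, and Cd68 was lost without ATRA replicate 1 (0.0595) or PB-4 replicate 2 (0.0656). The part of these cell type markers in the keratin differences was not tested.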

How the data were processed

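Total RNA was measured in B16 cells with 3 libraries per group; miRNA libraries were not used here. The authors deposited raw counts per gene, in whole numbers and without normalization. By the submitters' processing notes reads were aligned with HISAT2 2.0.4 to GRCm38; no source used here states the counting tool, the annotation or whether strand was used. Of 46095 genes, 27 with symbols altered to dates (0.214 to 0.26% of counts) were left out. Groups were compared in pairs with edgeR 4.0.16 (quasi-likelihood, robust, TMM) (R 4.3.3). Genes needed 10 or more counts in the libraries compared, and p was adjusted by Benjamini-Hochberg over all genes, with a threshold of 0.05. The standard error was derived from the F statistic (log2 fold change over its root). CPM used TMM factors over 9 libraries. Alternatives were RLE size factors, library totals, DESeq2 1.42.0, limma voom with quality weights (limma 3.58.1), no filter, filterByExpr, a joint fit of the 9 libraries, a block on replicate number, replicates 1 and 2 only, and omission of each library. Same-numbered libraries deviated together (correlations 0.487 to 0.803, all above 0.1), so the numbers were taken to pair libraries, although replicates 1 and 2 correlated across numbers too. Counting intervals are exact conditional binomial intervals at 95% on summed counts. The fits were tested on simulated data in which only genes with many counts were changed and replicate numbers did not differ. That test therefore did not cover keratins with few counts. Python 3.11.15, pandas 2.3.3 and scipy 1.17.1 made the tables, matplotlib 3.10.9 the figures, and gene positions and promoter sequences came from RefSeq (GRCm38.p6).

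The text names all simple epithelial keratins, other keratins that passed a test or averaged at least 1 CPM in a group, and up to 4 genes of each other list that passed with at least 1 CPM, largest change first; other genes, among them Krt87, Krt88, the stratified keratins with few counts, Dsp, Cdh1, Epcam and Lmnb1, were chosen after their values were seen. A gene that this rule names is left out of the lists and not reported here. The keratins, gene lists and rule were chosen with earlier results of these data known.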

Additional observations from a re-analysis of the deposited data

Results flagged for a closer look

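The effects of ATRA and PB-4 against their shared control group were called different for 3 keratins by the direct comparison of the treatments with edgeR. Each of the 3 reached the filter only through its PB-4 counts, so it could be called higher with PB-4 but not lower. Krt7 was higher with PB-4 by a log2 fold change of 3.89 (adjusted p = 0.0242, range over the alternatives 8.4e-04 to 0.0986; higher in 3 of 3 libraries). Krt8 was higher by a ratio of 40.5 (adjusted p = 0.0396, range 0.00551 to 0.124). Krt81 was at least 6.92-fold higher (adjusted p = 0.0490, range 0.00105 to 0.130). The calls held in 11 of 15 alternatives for Krt7, 9 of 14 for Krt8 and 5 of 14 for Krt81.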

How the results depend on the processing

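In ATRA versus control 1 keratin (Krt80) instead of 0 was called with limma voom, with the replicate block and with replicates 1 and 2 only. Over all genes there, limma voom called 5236 of 17911 and replicates 1 and 2 only called 6457 of 17444. In PB-4 versus control, where 2 were called, limma voom called 5, filterByExpr 0 and replicates 1 and 2 only 1 (Krt7). Over all genes these called 9129 of 19450, 3002 of 15243 and 7461 of 18767. With filterByExpr, Krt8 and Krt81 were not tested. Omission of 1 library gave 0 to 1, beside 1341 to 3440 genes called. In PB-4 versus ATRA, where 3 were called, limma voom called 6, filterByExpr 1 and the fit of all 9 libraries 1. Over all genes these called 8246 of 19521, 2240 of 15392 and 2590 of 20211. Omission of 1 library gave 0 to 2, beside 1194 to 2761 genes called. Calls were lost for Krt8 and Krt81 with replicates 1 and 2 only, and in PB-4 versus ATRA for Krt7, Krt81 and Col17a1 in the fit of all 9 libraries and for Krt81 with RLE size factors. Only uncalled keratins changed sign. Krt80 with PB-4 against the control group gave 0.001 with library totals, 0.37 with limma voom, 0.008 with the replicate block, 0.41 with replicates 1 and 2 only, and -0.48 to 0.63 on omission of 1 library. Krt7 with ATRA gave 1.96 with limma voom, 0.64 with the block and -0.86 to 0.21 on omissions, and with PB-4 Krt4 gave -0.91 to 0.50 and Krt13 -1.04 to 0.34 on omissions. Of all genes, the block called 3288, 8630 and 5821 (191, 3139 and 2384 without it) in ATRA versus control, PB-4 versus control and PB-4 versus ATRA. With library totals the median log2 fold change over all genes in PB-4 versus control was 0.20 (0.03 with TMM factors), and 2673 genes were called higher and 489 lower (2246 and 893). The cause of these differences was not tested. Apart from Krt80 the keratins rest on few counts: 45 of 54 stayed under the count minimum over all 9 libraries, and a gene tested only through its PB-4 counts could not be called lower.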

Other observations

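The replicate 3 libraries, which held most counts of Krt4 and Krt13, held counts of a few other genes that were near 0 elsewhere. Of all genes, 13 had at least 1 count in each replicate 3 library, at least 8 over the 3, and at most 1 over the other 6 libraries; the same rule gave 5 genes for replicate 1 and 30 for replicate 2. Besides Krt4 and Krt13 the 13 included Lipf, the gene of gastric lipase, with 14, 11 and 12 counts in control, ATRA and PB-4 replicate 3, and the muscle genes Myh4 (4, 4 and 10), Xirp2 (2, 2 and 8) and Mb (2, 2 and 7), with 0 counts of these 4 in the other libraries. The rule was chosen after the values were seen, and the source of these counts was not tested.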
